A study of Mus musculus with 6 samples.

Results

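The mitochondrial carrier genes of the SLC25 family were examined in H3K27ac chromatin immunoprecipitation sequencing of mouse quadriceps. Members were the peaks annotated to a gene whose symbol begins with Slc25a and a number. They made up 100 of 46988 peaks in the control list, annotated to 37 genes, and 88 of 40721 peaks in the detrained list, annotated to 40 genes. Together the lists named 41 of the 47 Slc25a genes in the RefSeq gene table, 36 of them in both lists. Slc25a18 had a peak in the control list alone. Slc25a13, Slc25a21, Slc25a40 and Slc25a48 had one in the detrained list alone. Slc25a2, Slc25a15, Slc25a27, Slc25a37, Slc25a41 and Slc25a54 had no listed peak under their own name.

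The muscle came from wild-type mice labelled C57BL/6, which the study's methods give as male C57BL/6J, and the strain entries of the input libraries read C57BL/7 and C57BL/8. Control mice were sedentary. Detrained mice had free access to running wheels from 8 weeks of age for 4 weeks, and their quadriceps was taken 72 hours after the last bout of running. Each group had 2 H3K27ac libraries and 1 input library, and each library came from 1 quadriceps. The H3K27ac libraries, C2 and C3 for control and Ex1 and Ex2 for detrained mice, held 20805019 to 22400894 tags. The control input held 10812470 and the detrained input 21298438. Whole muscle holds several cell types, and fewer cells of a type cannot be told apart from less acetylation per cell.

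SLC25 proteins are encoded in the nucleus. Most of them sit in the inner mitochondrial membrane and exchange 1 solute for another, while Slc25a17 is a peroxisomal carrier and Slc25a46 an outer-membrane protein. Among them they pass ATP, ADP, phosphate, metabolic acids, amino acids, acylcarnitines, nucleotides and cofactors between the cytosol and the matrix. Contracting muscle depends on the exchange of ADP for ATP and on phosphate import, and its fatty acid oxidation depends on the entry of acylcarnitine. H3K27ac marks active promoters and enhancers, and the signal around a start site is usually higher in genes that are being transcribed.

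Sequences are shown for start sites of 4 carriers and for 1 upstream peak. Slc25a4 encodes the adenine nucleotide translocator of heart and skeletal muscle. Slc25a1 and Slc25a25 had the largest decrease and the largest increase in density among shared peaks classed as promoters, and Slc25a20 had the largest increase among all shared peaks. The upstream window is the middle of the distal peak with the largest decrease, 21.3 kb from the start site of Slc25a30. Each promoter window runs from 250 bases before to 50 after a RefSeq start site, in the orientation of the gene, and the upstream window is on the plus strand. Positions are on GRCm38.p6, the assembly that mm10 names. Capitals mark letters of 6 short motifs searched on both strands. These were GCGCATGC of NRF1, AAGGTCA of the estrogen-related receptors, CCGGAAG of ETS factors such as GABP, AAGATGGC of YY1, GGGCGG of SP1 and the E-box CAGCTG.
Slc25a4 promoter, chr8:46211013-46211312, minus strand: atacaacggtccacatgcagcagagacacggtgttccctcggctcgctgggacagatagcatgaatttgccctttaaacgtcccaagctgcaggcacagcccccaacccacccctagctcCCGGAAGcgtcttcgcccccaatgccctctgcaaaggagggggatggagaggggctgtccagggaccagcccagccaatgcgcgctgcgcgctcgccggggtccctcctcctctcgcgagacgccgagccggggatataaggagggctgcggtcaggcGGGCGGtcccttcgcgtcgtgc
Slc25a1 promoter, chr16:17928170-17928469, minus strand: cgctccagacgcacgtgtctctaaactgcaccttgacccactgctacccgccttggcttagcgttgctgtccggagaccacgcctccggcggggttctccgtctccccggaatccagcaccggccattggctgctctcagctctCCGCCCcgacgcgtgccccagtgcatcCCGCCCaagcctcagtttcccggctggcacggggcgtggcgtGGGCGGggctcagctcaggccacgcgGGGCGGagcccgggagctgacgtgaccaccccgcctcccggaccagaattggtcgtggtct
Slc25a25 promoter, chr2:32451421-32451720, minus strand: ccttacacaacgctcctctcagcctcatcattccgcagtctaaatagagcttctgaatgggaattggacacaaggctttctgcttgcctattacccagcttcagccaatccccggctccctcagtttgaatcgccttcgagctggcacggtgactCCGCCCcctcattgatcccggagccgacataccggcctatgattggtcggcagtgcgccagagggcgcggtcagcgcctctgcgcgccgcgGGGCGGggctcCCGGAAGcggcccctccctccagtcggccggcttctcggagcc
Slc25a20 promoter, chr9:108661886-108662185, plus strand: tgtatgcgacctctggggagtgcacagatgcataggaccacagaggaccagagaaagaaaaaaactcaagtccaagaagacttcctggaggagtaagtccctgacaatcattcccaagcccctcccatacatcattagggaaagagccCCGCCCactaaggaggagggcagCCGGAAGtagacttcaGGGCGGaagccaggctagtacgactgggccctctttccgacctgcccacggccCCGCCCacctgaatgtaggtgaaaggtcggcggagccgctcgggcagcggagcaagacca
Slc25a30 upstream peak, chr14:75808205-75808504, plus strand: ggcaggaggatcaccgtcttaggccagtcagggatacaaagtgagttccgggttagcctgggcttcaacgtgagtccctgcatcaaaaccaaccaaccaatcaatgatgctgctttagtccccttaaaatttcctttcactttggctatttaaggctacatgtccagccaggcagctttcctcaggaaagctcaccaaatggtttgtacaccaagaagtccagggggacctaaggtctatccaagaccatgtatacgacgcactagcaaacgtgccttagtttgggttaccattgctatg

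The SP1 letters stood 1 time in the Slc25a4 window, 4 times at Slc25a1, 2 times at Slc25a25 and 3 times at Slc25a20. The ETS letters stood once in the windows of Slc25a4, Slc25a25 and Slc25a20 and were not in that of Slc25a1. None of the 6 motifs was in the window upstream of Slc25a30. The 4 promoters were rich in G and C, from 58% at Slc25a20 to 69.3% at Slc25a1, while the upstream window held 48.3%. A match of letters is a description of the window and not a measured binding site.

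The RefSeq promoter table used here matched 36 of the carriers. A promoter window of 26 of them, 72.2%, touched a peak in both lists, against 38.6% of the 27025 genes in that table. With 1 window a gene, that under the densest peak, the median ratio of observed to expected CpG was 0.765, against 0.77 for all genes touched in both lists. The motifs were counted in any touched window of a gene, and shares are set against all genes touched in both lists. SP1 letters stood in 25 of the 26 genes, or 96.2%, against 65.7%, and the exception was Slc25a12. ETS letters stood in 6, or 23.1%, against 19.3%, at Slc25a3, Slc25a4, Slc25a17, Slc25a20, Slc25a25 and Slc25a38. NRF1 letters stood in none of the 26, against 5.84%, the YY1 letters in that of Slc25a3 alone, against 5.08%, and the E-box in 4, or 15.4%, against 17.7%. The estrogen-related receptor letters stood in the window of Slc25a34 alone, against 3.74%. No window of Slc25a10, Slc25a18, Slc25a21, Slc25a31, Slc25a47, Slc25a48 or Slc25a54 touched a peak in either list. Slc25a31 is the adenine nucleotide carrier of germ cells and Slc25a47 is a carrier of liver. The Slc25a13 window and the Slc25a40 window touched a peak in the detrained list alone, and those of Slc25a14 in the control list alone.

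Several of these start sites lie beside those of other genes, and the name of a peak then followed its centre. The peak over the Slc25a15 start site was named for 1810012K16Rik in both lists. The peak over Slc25a11, the oxoglutarate carrier of the malate-aspartate shuttle, was named for Slc25a11 in the control list and for its neighbour Rnf167 in the detrained list. The promoter peak of Slc25a40 lay at the start of Dbf4 as well. For such windows the acetylation cannot be assigned to 1 of the neighbours.

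Density was tags per kb of the called peak per 10000000 total tags, and the levels in this and the following sentences are on that linear scale. At the start sites, Slc25a4 stood first of the 26 genes with control values of 110 and 130 and detrained values of 124 and 124. Slc25a39, a mitochondrial glutathione carrier, had 107 and 123 in control and 125 and 120 in detrained muscle. Slc25a11 had 98.6 and 111 in control and 105 and 92.3 in detrained muscle. In these 3 genes the groups overlapped, and they were the only ones of the 26 with a mean over 100. Slc25a51, the NAD carrier, has no entry in the promoter table, and its start-site peak held 114 and 111 in control and 111 and 105 in detrained muscle. At the other end, Slc25a43, an orphan carrier, had 15 and 16 against 18.4 and 16.2, and Slc25a22, a glutamate carrier, had 34.2 and 38.5 against 33.1 and 33.7. The ranges over the 4 libraries overlapped for 24 of the 25 neighbouring pairs in this order, so most neighbouring ranks cannot be told apart. The exception was the step from Slc25a22 to Slc25a43. Between groups, 10 of the 26 were lower in density without overlap, or 38.5%, against 30.8% of all genes touched in both lists, and 3 were higher, or 11.5%, against 23.8%. In tags per peak 7 were lower, or 26.9%, against 30.5%, and 3 higher, or 11.5%, against 18.2%.

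**Figure D1:**
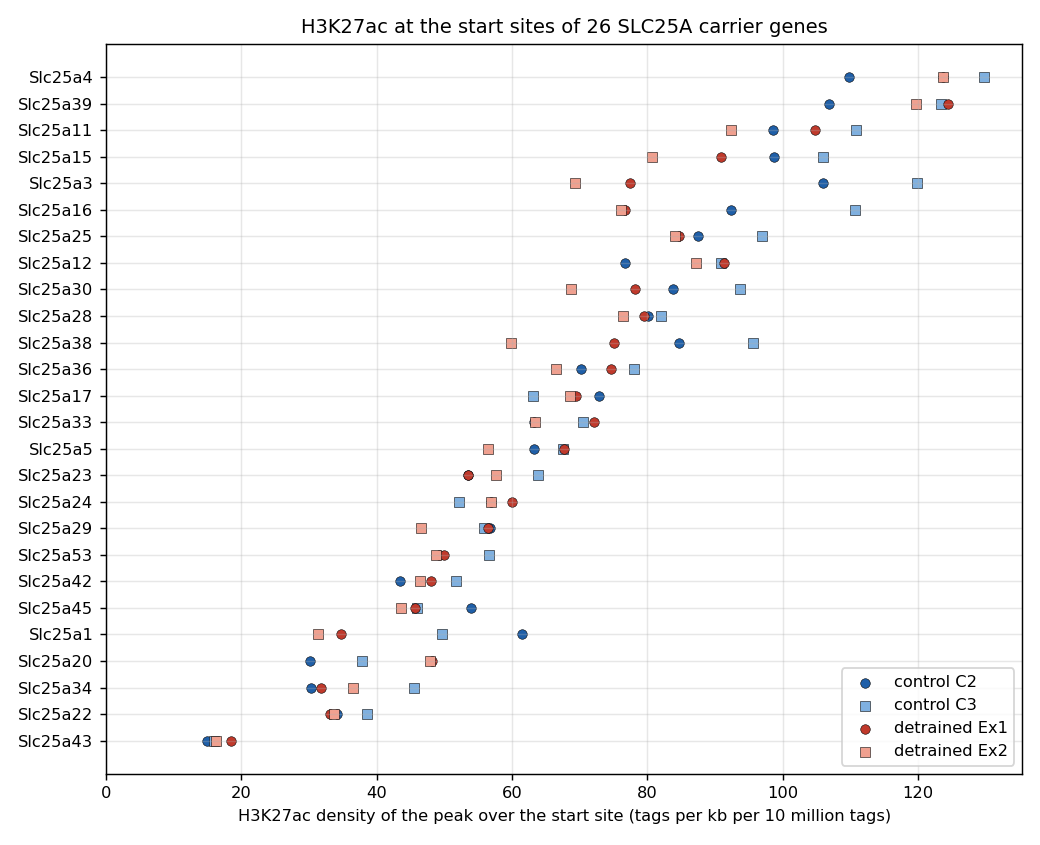
H3K27ac density of the peak over the start site (x axis, tags per kb per 10000000 tags, linear) for the 26 SLC25A genes whose promoter window touched a peak in both lists, 1 point per library. Slc25a4 and Slc25a39 lie highest, Slc25a43 lies lowest, and the groups overlap for 13 of the 26 genes, with 10 lower and 3 higher in detrained muscle. For Slc25a25 the peak with the higher density is drawn, which covers an internal start site.

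Peaks centred in a promoter by the annotation numbered 14 in each list, not all of them of the same genes. Their median density was 66.7 in control (68.8 in C2, 63.8 in C3) and 68.6 in detrained muscle (70.9 in Ex1, 63.9 in Ex2). The median over all genes with such a peak was 62.5 in control and 61.7 in detrained muscle. Among the 11 carriers with a promoter peak in both lists, Slc25a39, Slc25a51, Slc25a30, Slc25a28 and Slc25a25 had the highest means and Slc25a45, Slc25a1 and Slc25a22 the lowest. Most member peaks lay elsewhere. In the control list 39 were in introns, 37 between genes, 8 in exons and 2 at transcript ends, and in the detrained list 34, 35, 4 and 1. Peaks centred over 10 kb from a start site made up 43% of control and 40.9% of detrained member peaks, against 59.6% and 57.5% of all peaks. Member peaks were stronger than the average listed peak, with a median of 75 against 45.5 pooled tags per 10000000 in control and 85.5 against 57.9 in detrained muscle.

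To compare the groups, a control and a detrained peak that overlapped one to one, each covering at least 50% of the other, were treated as a shared peak. There were 26432 shared peaks, of which 63 were named for an SLC25A gene in both lists, in 32 genes. Ratios below are log2 of detrained over control density. Each group's table had its own normalization over its own peaks. No test between groups was therefore made, and each comparison is a description of 2 libraries against 2. The median ratio of the 63 peaks was -0.07, with quartiles of -0.13 and 0.05. The median within-group SD of a peak was 0.13 on the same scale. Over all shared peaks the median ratio was -0.03. Ex1 and Ex2 were each below C2 and C3 in 17 of the 63 peaks, or 27%, against 27.2% of all shared peaks. Both lay above in 8, or 12.7%, against 21.3%. In the other 38 the groups overlapped. When scaled to the tags in listed peaks the counts became 12 lower and 12 higher, with 22% and 27.8% over all shared peaks, so the split between lower and higher members depended on the scaling. A ratio of 0.32 or more in size without overlap was seen in 6 lower peaks, or 9.52%, against 11.7%, and in 1 higher peak, or 1.59%, against 8.36%. In tags per peak the same limit gave 7 lower, or 11.1%, and 8 higher, or 12.7%, against 14% of all shared peaks in each direction, so the split of 6 to 1 was not seen on that measure. C3 was above C2 in 61.9% of the 63 peaks and in 61.3% of all shared peaks.

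Density also depends on how far the caller extended a peak. Across the 63 peaks the density ratio and the length ratio had a Pearson correlation of -0.53, and across all 26432 shared peaks it was -0.51. Both are descriptions across peaks of the same 4 libraries, and length enters the density itself. Of the 17 peaks lower in density, 15 had been called longer in detrained muscle, or 88.2%, against 80.1% of all such shared peaks. Of the 8 higher ones, 7 had been called shorter, or 87.5%, against 80.4%. Density and tags per peak therefore differed in the sign of the ratio at 31 of the 63 peaks, or 49.2%, against 48.2% of all shared peaks. Lower without overlap on both measures were 7 peaks, or 11.1%, against 9.6% of all shared peaks, and higher on both was 1, or 1.59%, against 6.37%. Among the 7 were the promoter peaks of Slc25a1 and Slc25a28, the Slc25a30 promoter and its peak at 21.3 kb, an intronic Slc25a17 peak and the Slc25a35 start-site peak. The single higher one lay 73.8 kb upstream of Slc25a33.

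**Figure D2:**
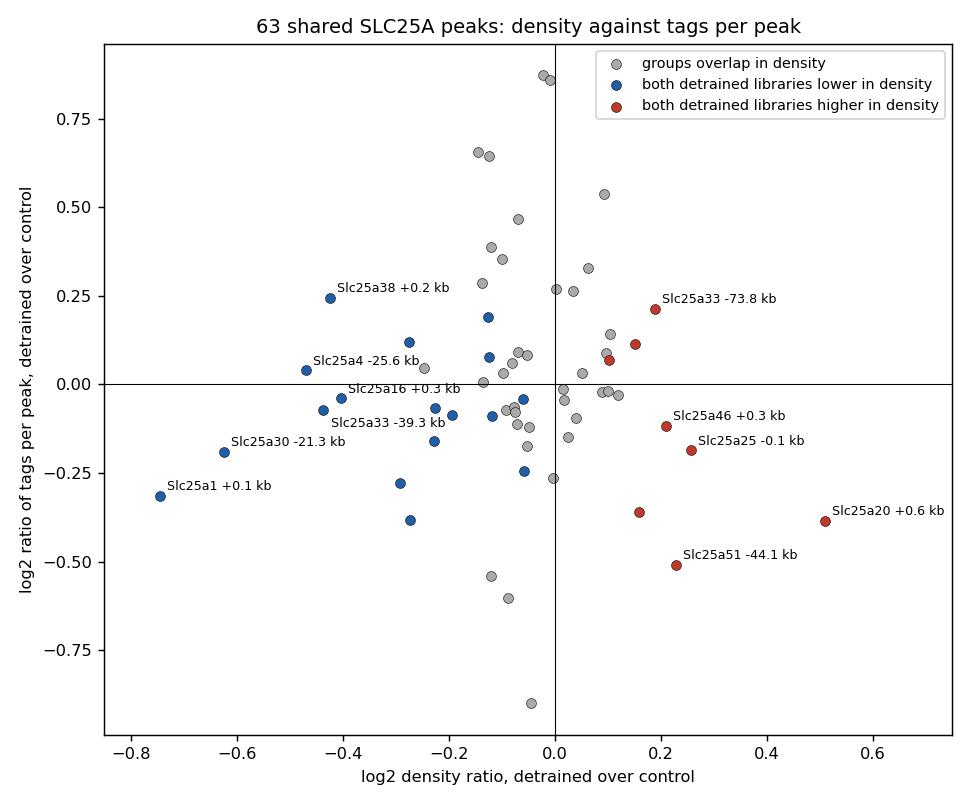
Log2 ratio of density (x axis) against log2 ratio of tags per peak (y axis), detrained over control, for the 63 shared SLC25A peaks, coloured by whether the libraries of the groups overlap in density. Slc25a1 and Slc25a30 lie in the lower left, where both ratios are negative, and Slc25a20 lies at the right with a density ratio of 0.51 and a tag ratio of -0.38.

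Slc25a1, the citrate carrier that exports citrate for fatty acid and sterol synthesis, had the largest decrease in density among the shared peaks. Its promoter peak, chr16:17927488-17928834 in control, held densities of 61.5 and 49.6 in control and 34.7 and 31.3 in detrained muscle, 1.68-fold lower. The groups did not overlap, and the ratio of -0.75 (SD within groups 0.17, n = 2 a group) stood at percentile 0.511 of all shared peaks. Tags per peak were 82.8 and 66.8 in control and 63 and 56.9 in detrained muscle, a log2 ratio of -0.31 over a peak of 1346 bp against 1816 bp. In tags, wider decreases were found at other member peaks, among them a Slc25a28 intronic peak and 4 of the Slc25a30 peaks. A second shared peak, 6.26 kb downstream of the start site, held 81.4 and 66.6 against 75.5 and 66.8, and there the groups overlapped. Another peak, 2.67 kb upstream with 45.9 pooled tags, was in the control list alone and had the most tags of any member peak without a counterpart.

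Slc25a30, an uncoupling-protein-like carrier, had fewer tags in detrained muscle at every one of its peaks. It had 5 peaks in each list, at the promoter and upstream of it, and the last ended 35.9 kb before Tpt1, the next protein-coding gene. The promoter peak had densities of 83.8 and 93.7 in control and 78.3 and 68.7 in detrained muscle, and the peak at 21.3 kb had 47.5 and 53.1 against 31.9 and 33.3. In both the groups did not overlap, with log2 ratios of -0.27 and -0.62. The shared peaks at 4.07 kb and 9.21 kb had ratios of -0.09 and -0.12 in density, where the groups overlapped, and of -0.60 and -0.54 in tags per peak, where they did not. The fifth peak, at 16.7 kb, was called over 1998 bp in control and 751 bp in detrained muscle, and its tags were 58.2 and 52.5 against 18.3 and 26.8. Summed over the gene, the tags were 541 and 638 in control and 400 and 432 in detrained muscle, a log2 ratio of -0.50. Each of the 5 peaks had fewer tags in both detrained libraries than in either control library, as did 29.5% of all runs of overlapping peaks. The log2 signal over input was 2.76 to 2.92 at the 5 control peaks and 1.85 to 2.54 at the 5 detrained peaks. These values were normalized within each list, and the control input held fewer tags, so the ranges cannot be set directly against each other. Slc25a30 was singled out here after its values were seen.

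Slc25a28, mitoferrin-2, an iron importer, had a promoter peak shared with the start of BC037704. Its densities were 80.1 and 82.1 in control and 79.5 and 76.4 in detrained muscle, a ratio of -0.06 without overlap. Over the gene its tags were 452 and 484 against 323 and 316, a log2 ratio of -0.55. Much of that difference lay in an intronic peak 4.29 kb inside the gene, called over 3467 bp in control and 1916 bp in detrained muscle, whose densities of 40.3 and 43.8 against 40 and 41.5 overlapped. Its tags were 140 and 152 against 76.6 and 79.6, a log2 ratio of -0.90. Slc25a37, mitoferrin-1, had no listed peak under its own name. It has no entry in the promoter table, so its start site was not searched for peaks under other names.

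The adenine nucleotide and phosphate carriers supply oxidative phosphorylation, and the start-site tags of Slc25a4, Slc25a5 and Slc25a3 overlapped between groups. At Slc25a4 the ratio was 0.05 in density and 0.03 in tags (SD within groups 0.12), with overlapping groups. Its peaks at 6.08 kb and 9.69 kb upstream also overlapped in density, with ratios of -0.12 and 0.12. Tags at 6.08 kb were 78 and 96.1 in control and 110 and 117 in detrained muscle, a log2 ratio of 0.39 without overlap, over 1202 bp against 1711 bp. The peak at 25.6 kb upstream had densities of 55.8 and 79 in control and 46.5 and 49.4 in detrained muscle, a ratio of -0.47. There the detrained caller had joined the peak to a weak neighbour, and tags per peak, 126 and 178 against 149 and 159, overlapped. Slc25a5, the more widely expressed translocator, had start-site densities of 63.3 and 67.6 against 67.7 and 56.5, which overlapped. A weak distal Slc25a5 peak, called over 630 bp in control and 1705 bp in detrained muscle, held 8.68 and 9.90 tags against 19 and 21.7. Slc25a31 had a single weak pair, in an intron of Intu 25.8 kb from its start, with 13 and 11.8 tags against 19.2 and 26.4. Both were higher in tags without overlap. The Slc25a31 pair was called over 500 bp in control and 913 bp in detrained muscle, and its densities, 26 and 23.7 against 21 and 29, overlapped. Slc25a3, the phosphate carrier, had a start-site peak of 3400 bp in control that was joined with a neighbour into a peak of 5736 bp in detrained muscle, so it formed no shared pair. The densities of these peaks were 106 and 120 in control and 77.5 and 69.4 in detrained muscle, a log2 ratio of -0.62 without overlap. Counted over the joined stretch, its tags were 395 and 449 in control and 444 and 398 in detrained muscle, which overlapped, so the lower density came with the longer call.

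Slc25a25, a calcium-regulated ATP-Mg/phosphate carrier, held the broadest member peak. It covered 14.5 kb of the gene in control, over an internal start site, and 18.1 kb in detrained muscle, where it took in a control peak of 2.33 kb. Its densities were 87.5 and 96.9 in control and 84.7 and 84.1 in detrained muscle, a ratio of -0.13 without overlap. Over the same stretch the tags were 1365 and 1473 in control and 1529 and 1519 in detrained muscle, a log2 ratio of 0.10 without overlap. Density and tags thus pointed in opposite directions. The peak at the upstream promoter had densities of 67.1 and 64.6 in control and 79.3 and 78.1 in detrained muscle, a ratio of 0.26 (SD within groups 0.03). Its tags, 251 and 242 against 219 and 215, were again in the opposite order, as the called length was 3746 bp in control and 2757 bp after detraining. The other carriers of this class with shared peaks, Slc25a23 and Slc25a24, had start-site ratios of -0.08 and 0.10.

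Slc25a33 and Slc25a36 carry pyrimidine nucleotides into mitochondria, and together they held 16 of the 63 shared peaks. Slc25a33 had 15 control and 14 detrained peaks, the most of any member. They ran over 93.5 kb of chromosome 4, from 15.6 kb inside the gene to 73.8 kb upstream, and the next protein-coding gene, Spsb1, began 45.2 kb beyond. Densities at its 12 shared peaks ranged from 14.4 to 72.1. The broad start-site peak held 63.3 and 70.5 in control and 72.1 and 63.4 in detrained muscle. The median ratio of the 12 was -0.09, from -0.44 at 39.3 kb to 0.19 at 73.8 kb, with 2 lower, 1 higher and 9 overlapping, beside 27.2% lower and 21.3% higher of all shared peaks. In tags per peak none was lower, 4 were higher and 8 overlapped, beside 28.8% and 24.7% of all, and the largest tag ratio was 0.66. At 39.3 kb the densities were 31.7 and 25.7 against 20.4 and 21.8, while tags per peak, 32.5 and 26.3 against 26.8 and 28.8, overlapped. At 73.8 kb the densities were 31.6 and 27.2 against 32.5 and 34.4, and the tags, 159 and 137 against 166 and 176, were higher as well. Summed over all its peaks, Slc25a33 had 1743 and 1856 tags in control and 1798 and 1813 in detrained muscle, which overlapped. Its mean over the 4 libraries, 1802, was the highest of the family, close to 1795 at Slc25a25. In both detrained libraries Slc25a25 had more, with 1857 and 1837. Slc25a36 had 442 and 457 against 535 and 462, without overlap.

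**Figure D3:**
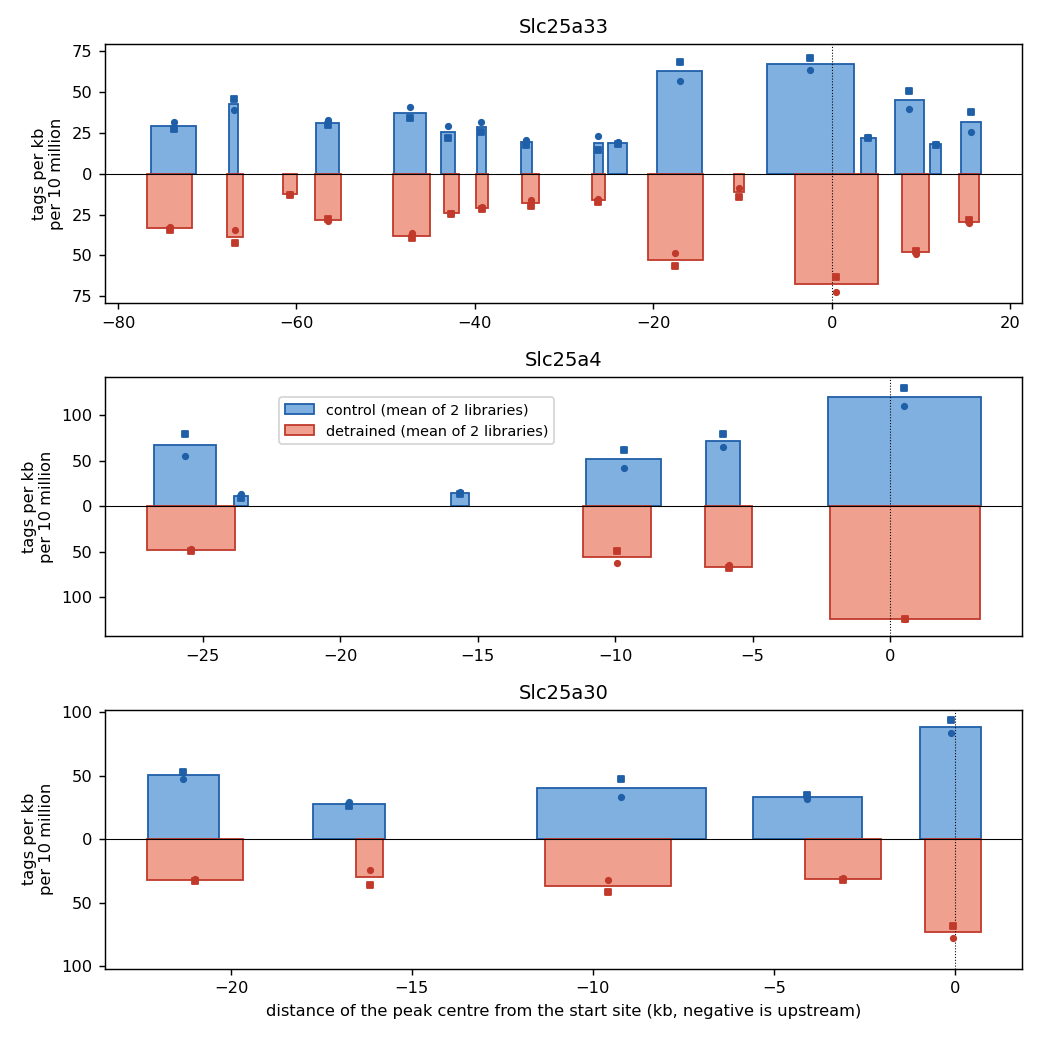
H3K27ac peaks of Slc25a33, Slc25a4 and Slc25a30 by distance of the peak centre from the start site (x axis, kb), control above and detrained below the line. Bar width is the called peak length, bar height the mean density of 2 libraries (tags per kb per 10000000 tags), and points are the single libraries, circles for C2 and Ex1 and squares for C3 and Ex2. The Slc25a33 peaks reach 73.8 kb upstream, and the detrained Slc25a30 peaks are lower or narrower.

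Among carriers of fatty acid and amino acid metabolism, Slc25a20, the carnitine-acylcarnitine translocase, had the largest increase in density, from 30.2 and 37.9 in control to 48.3 and 47.9 in detrained muscle. The ratio was 0.51 (SD within groups 0.16), 1.42-fold higher without overlap, at percentile 97.9 of all shared peaks. The detrained peak of 1808 bp lay inside the control peak of 3358 bp, and tags per peak were 101 and 127 against 87.2 and 86.6, so the increase held for density alone. Slc25a12, the calcium-regulated aspartate-glutamate carrier aralar, had 4 shared peaks. At its start site the densities were 76.7 and 90.9 against 91.4 and 87.3, which overlapped, and only the peak 26.7 kb inside the gene was apart, with 52.6 and 56.7 against 47.9 and 45.6. In tags per peak the groups overlapped at that peak, with 347 and 374 against 352 and 336, as at the other 3 peaks. Slc25a38, a glycine carrier of haem synthesis, had start-site densities of 84.8 and 95.7 against 75.1 and 59.9, a ratio of -0.42 without overlap. Its tags, 97.9 and 111 against 138 and 110, overlapped. Slc25a45 gave 127 and 108 tags against 220 and 210 under its own name, but the detrained peak had taken in a control peak named for Frmd8, and over the whole stretch the tags were 206 and 168 against 220 and 210. Slc25a29, a carrier of basic amino acids, had start-site densities of 56.8 and 55.9 against 56.4 and 46.6, which overlapped.

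Cofactor carriers had 10 shared peaks, of which 4 were lower in density, 1 was higher and 5 overlapped, beside 27.2% lower and 21.3% higher of all shared peaks. In tags 5 were lower and 5 overlapped, beside 28.8% lower and 24.7% higher of all. With 10 peaks these counts are a description only. Slc25a42, which brings coenzyme A into the matrix, had a start-site peak with 43.4 and 51.7 against 48.1 and 46.4 in density, and 404 and 481 against 374 and 361 in tags. The groups overlapped in density and not in tags, as the peak was called over 9312 bp in control and 7781 bp in detrained muscle. A Slc25a51 peak in an intron of Shb, 44.1 kb upstream, had densities of 29.3 and 31.5 against 35.9 and 35.2, a ratio of 0.23, with a ratio of -0.51 in tags. Slc25a16, a carrier linked to coenzyme A, had start-site densities of 92.3 and 111 against 76.7 and 76.1, a ratio of -0.40 without overlap. Its tags, 164 and 197 against 176 and 174, overlapped, as the peak was called over 1779 bp in control and 2291 bp in detrained muscle. Among orphan carriers, the Slc25a46 start-site peak had 58.6 and 63.8 against 72.3 and 69.2, a ratio of 0.21, with a tag ratio of -0.12. Slc25a34 had start-site densities of 30.4 and 45.5 against 31.9 and 36.6, which overlapped. Its start-site tags, 54.7 and 81.9 against 97.8 and 112, were higher without overlap, a log2 ratio of 0.65 over 1800 bp against 3068 bp.

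Summed tags were compared for the 36 carriers with peaks in both lists. The median log2 ratio was -0.08, against -0.05 for all 13524 genes with peaks in both lists. Both detrained libraries were below both control libraries in 15 carriers, against 35.2% of all genes, and above in 6, against 24.3%. Without genes that had a renamed peak, 12 of 32 were lower, or 37.5%, against 34.9%, and 5 higher, or 15.6%, against 23.4%, with a median of -0.06. The largest sums belonged to Slc25a33, Slc25a25, Slc25a12, Slc25a4 and Slc25a30. Slc25a12 had 1511 and 1828 against 1662 and 1672, and Slc25a4 had 945 and 1177 against 1090 and 1075, with overlap in both. Slc25a25 had 1703 and 1782 against 1857 and 1837, without overlap. The widest ratios under the gene names were set by renaming. Slc25a11 went from 279 and 311 to 38.2 and 33 and Slc25a34 from 299 and 394 to 97.5 and 112, in each case because a strong peak bore another gene's name in the detrained list. The Slc25a11 promoter peak held 255 and 286 tags in control and 286 and 252 in detrained muscle. The peak inside Plekhm2 that had counted for Slc25a34 in control held 244 and 313 tags. It belonged to a run of 3 control and 2 detrained peaks that as a whole held 434 and 459 against 429 and 473. The next widest, Slc25a47 with 58.5 and 47.5 against 20.2 and 20.2 and Slc25a10 with 23.7 and 24.7 against 58.1 and 58.3, rested on weak peaks of which some were in 1 list alone. Taken as 76 runs of overlapping peaks whatever their names, a reading chosen after these values were seen, the median log2 ratio was -0.01, as for all 31776 runs. Leaving out 1 library at a time moved it from -0.04 without C2 to 0.07 without C3, so its sign was not stable. Of the 76 runs, 20 were lower, or 26.3%, against 29.5% of all runs, and 19 were higher, or 25%, against 28.1%.

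**Figure D4:**
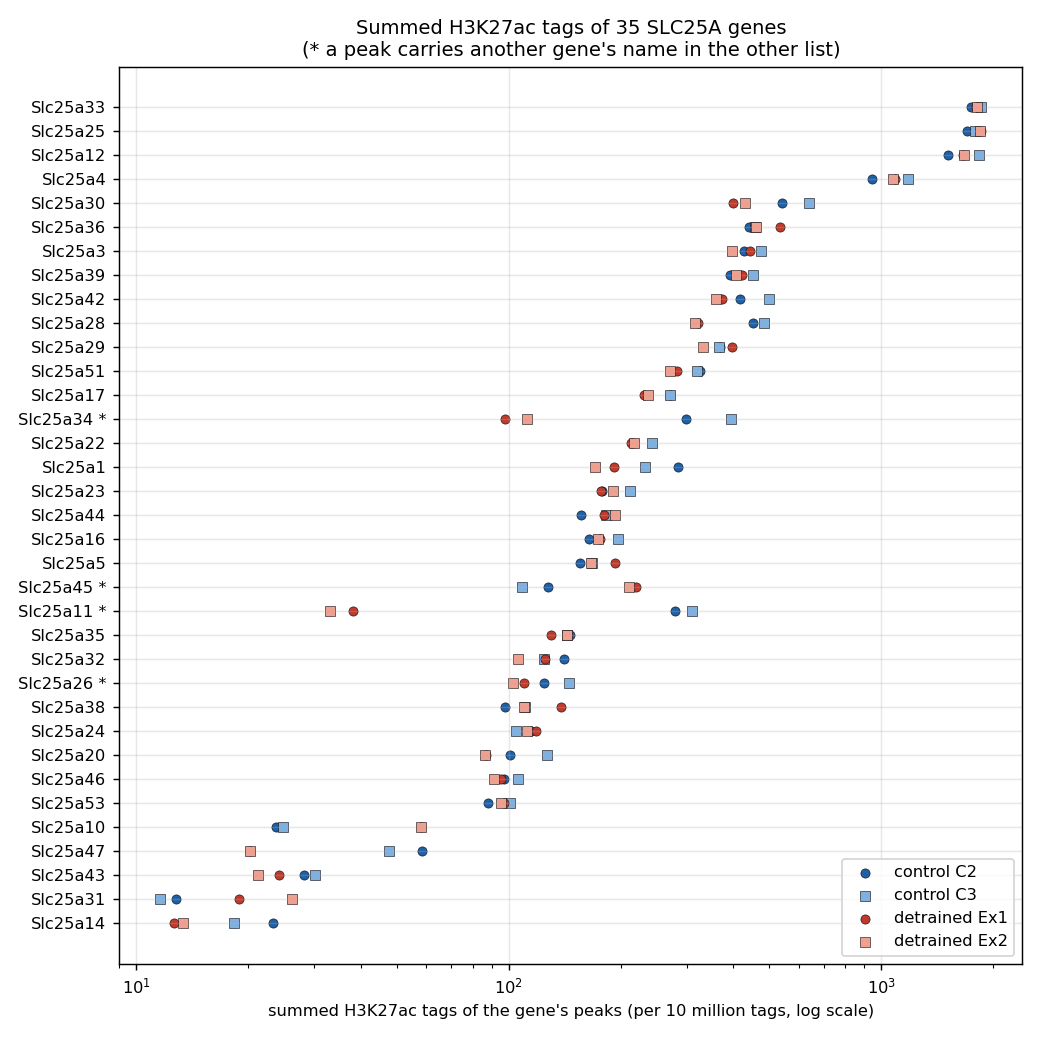
Summed H3K27ac tags of the peaks named for each of 35 SLC25A genes (x axis, tags per 10000000, log scale), 1 point per library. Slc25a33, Slc25a25 and Slc25a12 lie highest, and the widest gaps between groups, at Slc25a11 and Slc25a34, are marked by a star because a peak bears another gene's name in the other list.

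Of the 100 control member peaks, 20 were touched by no detrained peak, or 20%, against 27.9% of all control peaks. Of the 88 detrained member peaks, 13 were touched by no control peak, or 14.8%, against 18% of all detrained peaks. These peaks were weaker, with medians of 21.4 pooled tags per 10000000 in control and 21.3 in detrained muscle, against 103 and 112 for member peaks with a counterpart. In control the strongest were the Slc25a1 peak upstream of the promoter, a Slc25a33 peak at 24 kb with 38.5 tags and a Slc25a28 peak at the end of the gene with 35.3 tags. In detrained muscle they were the Slc25a40 start-site peak with 36.4 tags, a peak deep inside Slc25a13, the second aspartate-glutamate carrier, with 27.1, and a Slc25a10 peak with 24.6. A peak in 1 list alone does not show that acetylation was absent in the other group.

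Carriers and partners under other names were read from a list of 12 genes, of which 11 had peaks in both lists. Ucp1, the uncoupling protein of brown fat, had none. Of their 25 shared peaks, 5 were lower in density without overlap and 4 higher, or 20% and 16%, against the 27.2% and 21.3% of all shared peaks given above. Ucp3, the uncoupling protein of muscle, had 65.2 and 102 against 69.3 and 77.9 at its peak with the highest density, which overlapped. Mpc1, a subunit of the pyruvate carrier, had 118 and 150 against 132 and 131, which also overlapped. Mpc2, the other subunit, had no shared pair. Its start-site peak bore the name of Dcaf6 in the control list and held 605 and 747 tags in control and 666 and 636 in detrained muscle, which overlapped. A weaker peak named for Mpc2 in both lists, 9.40 kb from the start in control, fell short of 50% cover. It was called over chr1:165468771-165472452 in control and over the shorter chr1:165469153-165470158 in detrained muscle. Its tags were 82.1 and 95.1 against 28.1 and 29.9, lower without overlap, but not lower per kb of the called peak. Mtch1, an outer-membrane relative of the SLC25 proteins, had 57.2 and 62.5 against 68.8 and 74.2, and its relative Mtch2 had 91.7 and 96.6 against 84 and 77.4. In density the groups were apart at both, in opposite directions, with log2 ratios of 0.26 and -0.22. The ratios of tags per peak were 0.07 at Mtch1 and -0.13 at Mtch2.

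The tissue label was read against marker genes. Peaks were listed in both groups for 9 of 10 genes of skeletal myofibres, all but Tnnt3, with summed tags of 7651 in control and 7142 in detrained muscle. They were also listed for all 4 endothelial, all 3 fibroblast and both satellite cell markers. Adipocyte markers were listed only as 17.4 tags near Lep in control, and 2 of 4 macrophage markers had a peak in control and 3 in detrained muscle. Of 6 genes of other tissues, 3 had peaks, all of them summed to 470 tags in control and 459 in detrained muscle. Summed tags of several markers of other cells moved with the groups. Those of fibroblasts were 1849 and 1835 in control and 1959 and 2030 in detrained muscle. Those of satellite cells were 179 and 173 against 227 and 246, and those of macrophages 161 and 126 against 258 and 213. Each was higher without overlap, as were 24.3% of all genes with peaks in both lists. These sums depend on which peaks were called. Ptprc, with no control peak, held 53.5 tags in detrained muscle, Adgre1 had no shared peak, and the shared Csf1r peak overlapped in density. Pax7 went from 103.9 tags in 3 peaks to 166.4 in 5, while Myf5 went from 72.2 to 70.7. Endothelial tags, 1641 and 1990 against 2339 and 1754, overlapped, as did those of myofibres. Of 10 shared fibroblast peaks, 6 were higher in density and 1 lower, or 60% and 10%, beside 21.3% and 27.2% of all shared peaks, while the tags of the fibroblast gene Dpt alone went from 1091 to 969. The part of these cells in the SLC25A values was not tested.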

How the data were processed

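H3K27ac ChIP-seq of quadriceps was analysed, 2 libraries and 1 input a group. Per the study's methods and the submitters' processing notes, the authors aligned unique reads to mm10 with Bowtie (version 1.2 in the notes), made HOMER tag directories with 1 tag per position and called broad peaks per group on pooled libraries against input. The deposited pooled signal counts the tags of both libraries in a peak per 10000000 sequenced. For each library the authors deposited log2 values from the regularized log of DESeq2, fitted within each table. The authors' fold over input and its p-values were not used. Tags per library were estimated here by sharing out the pooled tags in proportion to library totals and 2 to the power of the log2 value. The log2 values are shrunken, so the spread between libraries is understated for weak peaks. Density was (tags + 0.5) per kb per 10000000 tags. Control columns C2 and C3 do not match the labels' numbering and were assigned to the group alone.

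Replicates are separate quadriceps. No p-value was computed: the tables were normalized separately, and an exact permutation test of 2 against 2 libraries cannot give a two-sided p under 0.333. Members and lists were chosen with earlier results of these data known. Named were the 5 highest and 3 lowest promoter densities, the 5 largest increases and decreases, the 5 largest sums, the 3 genes with most peaks, the 3 strongest peaks of 1 list alone per list, and a list of 12 carriers. The count of peaks lower or higher on both measures, the start-site counts, the marker tags per library, the overlap runs and the Slc25a20 and Slc25a30 sequences were chosen after seeing the data. Pairing was checked on simulated peaks. Python 3.11.15, numpy 2.4.6, pandas 2.3.3 and scipy 1.17.1 were used. The values of 1 member are counted in the totals and are not reported here by name.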

Additional observations from a re-analysis of the deposited data

How the results depend on the processing

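Leaving out 1 library at a time moved the median density ratio of the 63 shared peaks between -0.10 and -0.03, that of the summed tags between -0.15 and -0.01, and that of the 76 overlap runs between -0.04 and 0.07. Fewer libraries overlap less by construction. The peaks counted as lower then numbered 25 to 35, beside 35.9% to 45.5% of all shared peaks. Those counted as higher numbered 10 to 20, beside 28.8% to 38.7%. Past a log2 ratio of 0.32 there were 6 to 11 lower and 1 to 2 higher, for which no share over all shared peaks was computed. Each of C2, C3 and Ex2 moved a count by more than 1.5 times. Requiring 80% of each peak to be covered left 31 pairs, of which 9 were lower, 1 was higher and 0 were past 0.32 in either direction, beside 23.7% lower and 16.5% higher of all 12556 such pairs. Within 10 kb of a start site there were 39 pairs. Of these, 9 were lower, or 23.1%, and 5 higher, or 12.8%, beside 29.4% and 21.8% of all such pairs. Lower by at least 0.32 were 3 of them. Past 0.32, no share over all pairs was computed at 80% cover or within 10 kb. In tags per peak, 7 were lower and 8 higher by at least 0.32, beside 14% of all shared peaks in each direction. The median promoter peak held 193 tags in control and 163 in detrained muscle, over peaks of partly different genes. Slc25a11, Slc25a14 and Slc25a44 entered in control alone, and Slc25a26, Slc25a34 and Slc25a40 in detrained muscle alone. No such median over all genes was computed. Tags per peak reversed 6 named ratios. They became 0.040 at the Slc25a4 peak 25.6 kb upstream, 0.24 at Slc25a38 and -0.12 at Slc25a46. They became -0.51 at the Slc25a51 peak, -0.19 at Slc25a25 and -0.38 at Slc25a20. These reversals follow from peak length, which that measure leaves out. Peaks of 1 list alone made up 8.7% of control and 6.45% of detrained member peaks with at least 30 pooled tags, against 13.2% and 12.5% of all such peaks. They made up 12.3% of control member peaks within 10 kb of a start site, against 18.5%, and 13.5% of detrained ones, against 11.4%. When 50% cover was required they made up 24% of control member peaks, against 34.4%, and 23.9% of detrained member peaks, against 27.2%. No paired analysis was possible because no test was made and the control columns do not carry the labels' replicate numbers. No files held tag counts per library, so depth limits the weak peaks in a way that could not be measured here.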

Other observations

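By solute, the shared peaks counted as lower, higher or overlapping in density were 1, 0 and 5 for adenine nucleotide exchange, 1, 3 and 2 for ATP-Mg/phosphate carriers, and 1, 0 and 3 for carriers of carboxylates and oxoacids. They were 2, 0 and 3 for aspartate and glutamate carriers, 3, 1 and 12 for pyrimidine nucleotide carriers and 2, 0 and 2 for the uncoupling-protein-like group, in which Slc25a30 alone had shared peaks. All 4 Slc25a30 ratios were negative, with a median of -0.20. Over all shared peaks 27.2% were lower and 21.3% higher in density. In tags per peak the counts, in the same order, were 0, 2 and 4 for adenine nucleotide exchange, 1, 1 and 4 for ATP-Mg/phosphate carriers, and 1, 2 and 1 for carboxylates and oxoacids. They were 0, 0 and 5 for aspartate and glutamate carriers, 0, 6 and 10 for pyrimidine nucleotide carriers and 4, 0 and 0 for Slc25a30, beside 28.8% lower and 24.7% higher over all shared peaks. Among the smaller or mixed classes, the density counts were 1, 2 and 2 for orphan and other carriers, 1, 0 and 1 for iron, 0, 1 and 1 for carnitine and basic amino acids, 1, 0 and 1 for other amino acids and 0, 0 and 1 for glutathione. Their tag counts were 3, 1 and 1, then 2, 0 and 0, then 1, 0 and 1, then 0, 0 and 2, and 0, 0 and 1.

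Away from start sites, the middle 300 bases of the 34 shared member peaks whose centres lay over 1 kb from a start site in both lists were searched for the same 6 motifs. E-box letters stood in 5, or 14.7%, against 21.9% of the 17789 shared peaks of that kind. The estrogen-related receptor letters stood in 3, or 8.82%, against 7.62%, and SP1 letters in 3, against 7.86%. YY1 letters stood in 2, or 5.88%, against 1.47%, ETS letters in 1, or 2.94%, against 2.29%, and NRF1 letters in none, against 0.557%. These are counts of 0 to 5 peaks, given as a description.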
